A study of Mus musculus with 12 samples.

Results

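The genes described here are Nr4a1, Maff, Ifrd1, Fos and Egr1, which code for regulators of transcription that cells switch on within minutes of a growth factor or stress signal. They are 5 of 11015 genes measured, and each was represented by 1 probe set, so that 5 of 20523 probe sets name exactly 1 of them. Nr4a1, Maff and Ifrd1 were chosen from their Ets2KO minus WT difference in these same arrays, and nothing given here says what chose Fos and Egr1. Values of that comparison, and of any that shares arrays with it, are therefore a description and carry no test for these 5 genes. The other comparison of cells with and without Cre, DKO minus Ets1KO, shares no array with it and was tested for Nr4a1, Maff and Ifrd1. Its SE and p-values still draw on the WT and Ets2KO arrays, since the model takes the spread from all 4 groups.

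Expression was measured on Affymetrix mouse arrays in cultured cells labelled endothelial, from the aorta of mice aged 4 weeks. The 4 groups differ in the ETS factors Ets1 and Ets2. The arrays labelled DKO held cells of genotype Ets1-/-; Ets2 fl/fl given a lentivirus for eGFP and Cre recombinase. Ets2KO cells were Ets1+/+; Ets2 fl/fl and had the same eGFP and Cre virus. Ets1KO cells were Ets1-/-; Ets2 fl/fl with an eGFP virus, and WT cells were Ets1+/+; Ets2+/+ with an eGFP virus. All cells thus carried an eGFP lentivirus. Ets2 loss was obtained in culture with Cre, so loss of Ets2 and exposure to Cre cannot be told apart, and Ets1KO differs from WT in floxed Ets2 alleles as well as in Ets1. Short descriptions of the Ets1KO and Ets2KO samples say wild type, whereas their titles and genotypes, used here, say null. Titles call the samples biological replicates. Nothing else says that they came from separate animals, so p-values measure the spread between these samples, which may be technical.

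Immediate-early genes need no new protein synthesis to be induced. ERK kinases phosphorylate ETS-domain factors that sit with SRF on promoters such as those of Fos and Egr1, and CREB acts on others, among them Nr4a1. The products then act on a later set of genes: Fos pairs with Jun proteins as AP-1, Egr1 is a zinc finger activator, Nr4a1 is an orphan nuclear receptor, and Maff is a small Maf protein that pairs with CNC factors such as Nfe2l2 and has no activation domain of its own. Ifrd1 is a transcriptional co-regulator rather than a DNA-binding factor. ETS proteins recognise a GGAA core, which is why promoter sequence is shown here. In bulk RNA, fewer cells of a type and less RNA per cell cannot be told apart.

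Some properties of the arrays bear on every result. The third DKO column was, within 1e-05, the average of the other DKO columns in 20521 of 20523 probe sets and was left out, which leaves 11 arrays, 2 of them DKO and 3 in each other group. The DKO arrays sat lower as a whole, with medians over all probe sets of 8.28 to 8.30 log2 units, against 9.05 to 9.15 in the other 9 arrays. Comparisons with DKO are therefore given relative to array medians (after subtracting the median of the 11015 genes on that array), with the value as deposited beside it. In DKO minus WT the gap between sorted values was -0.72 at the 50th percentile, -0.48 at the 90th and -0.41 at the 99th, so that a subtracted median does not level the brightest genes. The targeted genes were checked first. The brightest Ets1 probe set read 10.02 and 10.29 in DKO, 8.31, 8.76 and 9.17 in Ets1KO and 10.26, 9.84 and 10.06 in WT, so Ets1 went against the DKO label. Of its 3 other probe sets, 1 also went against it (9.81 and 9.81 in DKO, 8.13, 8.77 and 8.92 in Ets1KO), 1 overlapped (7.40 and 7.98 in DKO, 6.95, 7.92 and 7.94 in Ets1KO) and 1 was lower in DKO (6.49 and 7.05 in DKO, 7.72, 8.57 and 8.51 in Ets1KO). The brightest Ets2 probe set read 11.02 and 9.63 in DKO, 9.63, 9.35 and 10.13 in Ets2KO, 10.28, 10.37 and 10.54 in Ets1KO and 9.72, 10.01 and 10.70 in WT. Relative to array medians it was 2.28 and 0.94 in DKO and 0.81, 0.91 and 1.05 in Ets1KO, so on that scale Ets2 was not lower in DKO as the label has it. The other Ets2 probe set read 8.36 and 7.03 in DKO and 7.96, 7.85 and 7.87 in Ets1KO. As deposited, the first DKO array was thus above every Ets1KO array and the second below, on both Ets2 probe sets. DKO minus Ets1KO is therefore read as a comparison of arrays by label. No source used here says whether these probe sets lie in the deleted parts. Neither Ets1 in Ets1KO minus WT (-1.31, adjusted p = 0.189, limma) nor Ets2 in Ets2KO minus WT (-0.44, adjusted p = 0.557, limma) passed the test.

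Of 14 endothelial markers, 4 (Kdr, Eng, Flt1 and Egfl7) were measured. Pecam1 and Cdh5, which define the cell type, were not analysed here, so the label could be checked only in part. The mean of the 4 measured lay below the array median on every array, although Eng alone had group means above it in WT (9.52) and Ets2KO (10.38). A level set against other genes does not measure cell type, and most of the markers were not measured. These markers thus neither bear out the label nor contradict it. Relative to that median it spanned -1.78 to -1.20 in DKO, -1.24 to -0.63 in Ets2KO, -1.83 to -1.39 in Ets1KO and -1.67 to -0.74 in WT. Group means as deposited were 6.42 to 8.63 for Kdr, Flt1 and Egfl7 and 7.41 to 10.38 for Eng. They were 10.26 to 13.27 for Col1a1, Col3a1 and Pdgfra (fibroblast) and Pdgfrb (pericyte), but 5.82 to 8.31 for the fibroblast markers Dcn and Lum. The other measured pericyte markers were lower than Pdgfrb in most groups, at 8.48 to 9.72 for Cspg4 and 7.42 to 12.38 for Rgs5. The mean of the fibroblast markers (5 of 5 measured) spanned 1.37 to 2.08 in DKO, above all arrays of the other groups, which ranged from -0.08 to 1.05. Smooth muscle markers (2 of 4) spanned -0.24 to 3.81 in DKO, -1.11 to 0.06 in Ets2KO, -0.60 to 2.70 in Ets1KO and 0.38 to 2.42 in WT. Adipocyte markers (2 of 4) spanned -3.66 to -0.99 in DKO, 0.15 to 4.02 in Ets2KO, -4.90 to -3.30 in Ets1KO and -2.71 to 2.36 in WT, so that Ets2KO lay apart from DKO and Ets1KO. Pericyte markers (3 of 4) spanned -0.07 to 0.52 in DKO, 0.72 to 2.46 in Ets2KO, -0.13 to 1.26 in Ets1KO and -0.43 to 0.59 in WT. No marker was at 0. The part of these cells in the results was not tested.

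RefSeq promoters (GRCm38.p6) show what the 250 bases upstream of the start sites hold. They are given for 4 of the 5 genes. Capitals mark the ETS core GGAA and TGACG, the core of the CREB site, read on either strand (so TTCC and CGTCA are marked too). Of 32851 mouse promoters of this length, 93.4% hold GGAA and 17.8% hold TGACG. The genes differ in both counts, and for Maff, which has 3 starts, the second is shown.
Nr4a1, chr15:101266596-101266845, plus strand: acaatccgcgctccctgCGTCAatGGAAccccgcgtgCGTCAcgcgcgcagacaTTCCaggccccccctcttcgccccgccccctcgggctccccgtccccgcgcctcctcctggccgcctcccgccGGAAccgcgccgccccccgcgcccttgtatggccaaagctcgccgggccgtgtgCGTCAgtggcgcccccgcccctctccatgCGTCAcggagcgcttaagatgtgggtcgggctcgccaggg
Maff, chr15:79347270-79347519, plus strand: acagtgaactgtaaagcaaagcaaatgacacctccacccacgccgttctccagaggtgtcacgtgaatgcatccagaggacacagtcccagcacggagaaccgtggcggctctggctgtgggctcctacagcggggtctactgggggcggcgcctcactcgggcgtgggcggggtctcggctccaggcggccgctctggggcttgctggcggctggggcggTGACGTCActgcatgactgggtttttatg
Ifrd1, chr12:40223190-40223439, minus strand: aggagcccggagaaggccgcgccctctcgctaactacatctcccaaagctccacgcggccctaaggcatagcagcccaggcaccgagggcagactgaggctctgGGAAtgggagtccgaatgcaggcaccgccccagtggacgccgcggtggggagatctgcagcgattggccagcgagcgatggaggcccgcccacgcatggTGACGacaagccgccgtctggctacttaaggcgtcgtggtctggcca
Fos, chr12:85473640-85473889, plus strand: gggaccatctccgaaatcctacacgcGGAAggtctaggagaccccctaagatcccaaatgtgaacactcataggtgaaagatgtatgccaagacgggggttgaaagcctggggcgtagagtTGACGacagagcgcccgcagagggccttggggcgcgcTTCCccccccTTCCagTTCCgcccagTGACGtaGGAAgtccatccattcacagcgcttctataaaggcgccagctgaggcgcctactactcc

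Nr4a1 has 3 GGAA cores, of which 1 lies in CCGGAA (found in 12% of promoters), and 4 TGACG. The Maff start shown has no GGAA and 2 overlapping TGACG within 1 full site, TGACGTCA, which 1.55% of promoters hold. The other Maff starts have 1 and 7 GGAA cores and 0 and 1 TGACG. Ifrd1 has 1 of each motif. Fos has 5 GGAA cores, 2 TGACG and a TATAAA, which 12.4% of promoters hold. The CArG box that SRF binds (in 1.47% of promoters) and the AP-1 site TGANTCA (in 6.75%) were in none of these windows, which says only that these letters are not in these bases. A GGAA match alone sets no gene apart when 93.4% of promoters hold one.

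In Ets2KO cells Nr4a1, Maff and Ifrd1 were each lower than in WT on every array, whereas Fos and Egr1 had Ets2KO and WT arrays that overlapped. Nr4a1 (probe set 1416505_at, chromosome 15) read 7.80, 7.62 and 7.83 log2 units in Ets2KO and 9.27, 9.97 and 9.09 in WT as deposited. The lowest WT array thus lay above the highest Ets2KO array by more than the whole range of Ets2KO. The mean was 7.75 ± 0.12 in Ets2KO and 9.45 ± 0.47 in WT (SD, n = 3 each), a difference of -1.69 (SE 0.23), or 3.24-fold lower in Ets2KO.

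Maff (1418936_at, chromosome 15) read 7.51, 7.76 and 7.99 in Ets2KO and 9.68, 9.62 and 9.62 in WT. The WT arrays were close together and all well above Ets2KO. Its means were 7.75 ± 0.24 in Ets2KO and 9.64 ± 0.03 in WT (SD, n = 3 each), a difference of -1.88 (SE 0.22), or 3.69-fold lower. Ifrd1 (1416067_at, chromosome 12) read 9.60, 9.87 and 9.98 in Ets2KO and 11.28, 11.34 and 11.23 in WT. Its groups did not overlap either, and it was 2.76-fold lower in Ets2KO, with means of 9.82 ± 0.19 in Ets2KO and 11.28 ± 0.06 in WT (SD, n = 3 each) and a difference of -1.47 (SE 0.20).

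Fos (1423100_at, chromosome 12) read 7.07, 7.24 and 7.46 in Ets2KO and 8.27, 9.65 and 6.67 in WT. WT spanned almost 3 log2 units and its lowest array was below all of Ets2KO, so the difference of -0.94 (SE 0.76) was close to its own error. Egr1 (1417065_at, chromosome 18) read 12.35, 12.45 and 9.28 in Ets2KO and 12.03, 13.35 and 12 in WT. Its difference of -1.10 (SE 0.86) rested on 1 array: without the third Ets2KO array it was -0.06. For these 5 genes 3 had every Ets2KO array below every WT array, where 14.1% of all 11015 genes did. Since Nr4a1, Maff and Ifrd1 were picked on this contrast, nothing is read from that count. Of all genes, 0.154% were called higher and 0.145% lower in Ets2KO minus WT at an adjusted p under 0.05.

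**Figure D1:**
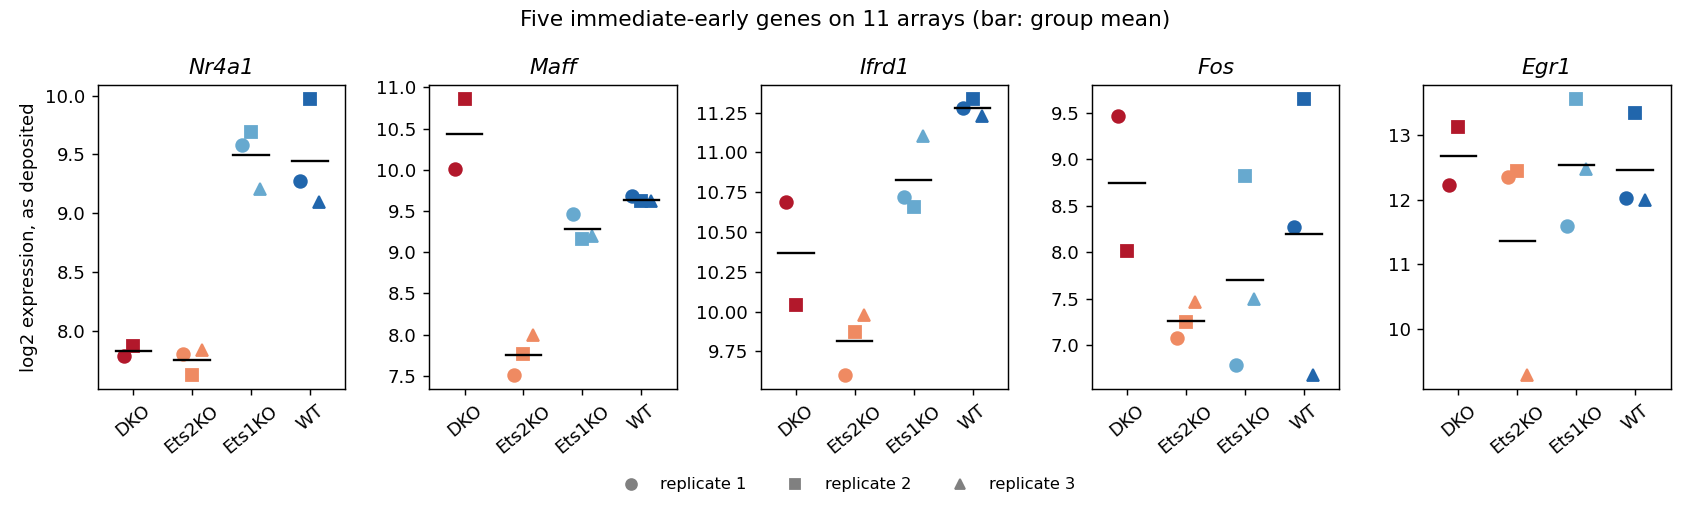
Log2 expression as deposited (vertical axis, own range per gene) of Nr4a1, Maff, Ifrd1, Fos and Egr1 on the 11 arrays, by group, with a bar at each group mean and a symbol for each replicate number. Ets2KO lies below WT without overlap for Nr4a1, Maff and Ifrd1, while Fos in WT spreads over 6.67 to 9.65 and Egr1 has 1 low Ets2KO array at 9.28.

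The groups compared also differed in other ways. Eif2s3y, which lies on the Y chromosome, read 9.30, 9.39 and 10.23 in Ets2KO and 9.37, 3.30 and 3.23 in WT, and Xist read 7.34 to 7.50 in Ets2KO and 7.26, 13.18 and 11.44 in WT. All Ets2KO arrays and the first WT array thus carried Y-linked signal with low Xist. Eif2s3y read 3.66 and 3.63 in DKO and 3.12 to 3.33 in Ets1KO, and Xist read 12.98 and 13.19 in DKO and 13.07 to 13.52 in Ets1KO, the opposite pattern. In Ets2KO minus Ets1KO and DKO minus Ets2KO, sex as these genes show it and genotype cannot be told apart, and the interaction holds part of the same imbalance. DKO minus Ets1KO is alike in these genes on both sides. In that WT array Nr4a1 read 9.27, Maff 9.68 and Ifrd1 11.28, beside the other WT values given above. The third WT array had the highest adipocyte marker level of its group, 2.36, and its Nr4a1, Maff and Ifrd1 were 9.09, 9.62 and 11.23.

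In Ets1KO cells, which had no Cre, Nr4a1 was near its WT level. Nr4a1 read 9.58, 9.69 and 9.21 in Ets1KO, inside the WT range, with a difference of 0.05 (SE 0.23). Maff read 9.46, 9.16 and 9.20 in Ets1KO, each below every WT array, and differed from WT by -0.36 (SE 0.22). Ifrd1 read 10.72, 10.66 and 11.10 in Ets1KO, also below every WT array, with -0.45 (SE 0.20). Every Ets1KO array was below every WT array in 9.08% of all genes.

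Fos read 6.78, 8.82 and 7.50 in Ets1KO and Egr1 11.60, 13.56 and 12.47. Both overlapped WT, with differences of -0.50 (SE 0.76) for Fos and 0.09 (SE 0.86) for Egr1. Among all genes, limma called 0% higher and 0.00908% lower in Ets1KO minus WT, and 949 had an unadjusted p under 0.05. These Ets1KO and Ets2KO differences share the WT arrays. Set directly against Ets1KO, Ets2KO differed by -1.74 for Nr4a1, -1.52 for Maff and -1.01 for Ifrd1, with no overlap, as in 19% of all genes, and by -0.44 for Fos and -1.19 for Egr1, with overlap.

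The arrays labelled DKO separated Nr4a1 from Maff. Nr4a1 was low in them and Maff was at its highest, while Ifrd1 overlapped WT and Ets1KO once array medians were subtracted. Nr4a1 read 7.78 and 7.87 as deposited in DKO and 9.58, 9.69 and 9.21 in Ets1KO, so the groups were apart. Relative to array medians it fell by 0.91 on the log2 scale (SE 0.26, adjusted p = 0.0310, limma, n = 2 and 3). As deposited the difference was -1.67 (adjusted p = 0.000817, limma) and after quantile normalization -0.90 (adjusted p = 0.0386, limma). Leaving out the first or the second DKO array, or the first or the second Ets1KO array, ended the call, with adjusted p of 0.126, 0.0849, 0.0737 and 0.0926 (limma). Where DKO is left with 1 array, that array is assumed to vary like the other groups.

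Maff read 10.00 and 10.86 in DKO and 9.46, 9.16 and 9.20 in Ets1KO as deposited. Both DKO arrays were above every other array although their medians were the lowest. Relative to array medians Maff rose by 1.92 (SE 0.25, adjusted p = 0.00122, limma, n = 2 and 3), or 3.78-fold, in DKO against Ets1KO. The difference was 1.16 as deposited (adjusted p = 0.00465, limma) and 1.75 after quantile normalization (adjusted p = 0.00152, limma).

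Ifrd1 read 10.69 and 10.04 in DKO and 10.72, 10.66 and 11.10 in Ets1KO. Its difference took either sign with the scale: 0.30 (SE 0.21, adjusted p = 0.321, limma) relative to array medians and -0.46 (adjusted p = 0.118, limma) as deposited. Fos read 9.47 and 8.01 in DKO, a difference from Ets1KO of 1.81 (SE 0.85), or 1.04 as deposited. Egr1 read 12.22 and 13.13 in DKO, with a difference of 0.89 (SE 0.98), or 0.13 as deposited. The DKO arrays of Fos and Egr1 overlapped Ets1KO.

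Of the 3 genes tested, Maff was called higher and Nr4a1 lower, beside 17.4% of all genes called higher and 11.3% lower in DKO minus Ets1KO. With calls this frequent, a call by itself sets neither gene apart from the other genes. The share of all genes without overlap between DKO and Ets1KO was not counted, so nothing is read from the lack of overlap. The mean of the fibroblast markers was also highest in DKO relative to array medians, as given above, but not every gene in it was. As deposited, Col1a1, Col3a1 and Dcn had their highest group mean in DKO. Lum and Pdgfra had theirs in Ets2KO, at 6.09 and 13.07, against 6.01 and 11.63 in DKO. The Lum gap was smaller than that between the array medians of these groups. Relative to array medians Lum was thus highest in DKO too, and Pdgfra alone was not.

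**Figure D2:**
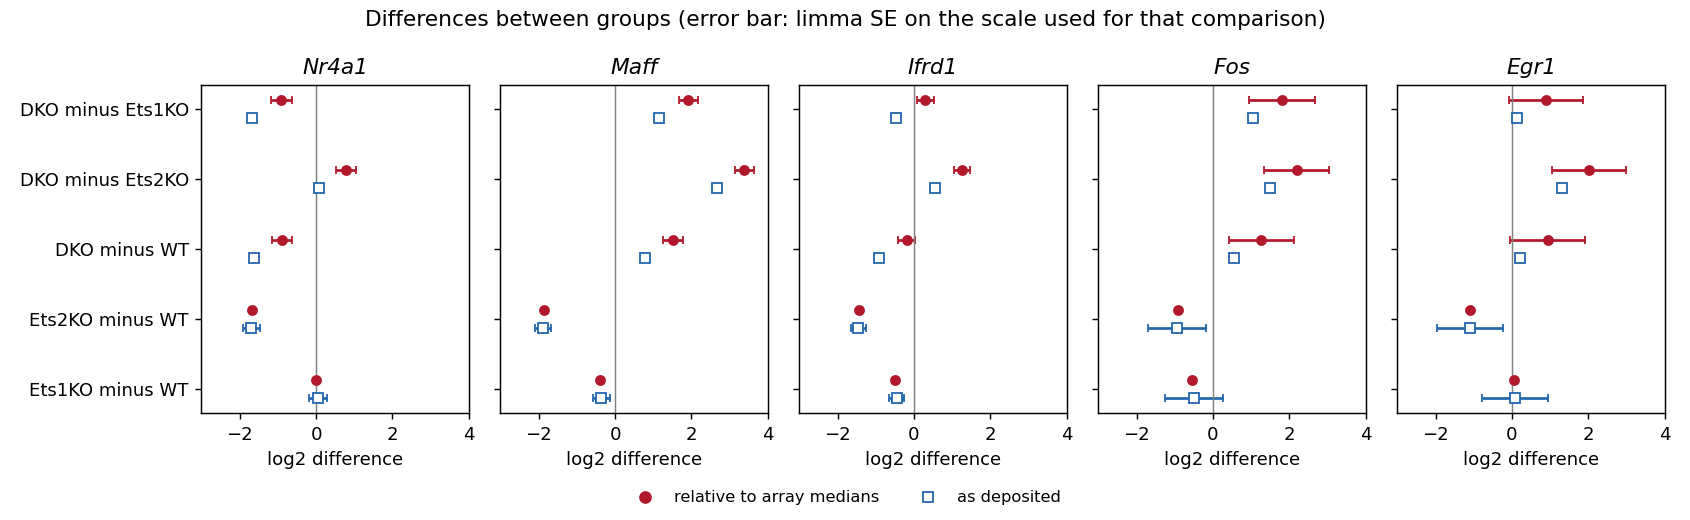
Log2 differences between groups (horizontal axis) for each of the 5 genes in 5 comparisons (vertical axis), relative to array medians (filled circles) and as deposited (open squares), with the limma standard error drawn on the scale used for that comparison. Maff is positive in DKO minus Ets1KO on both scales (1.92 and 1.16), Nr4a1 is negative on both (-0.91 and -1.67), and Ifrd1 changes sign (0.30 and -0.46).

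Against WT, Nr4a1 was -0.90 (SE 0.26) in DKO relative to array medians and -1.62 as deposited, the same direction as against Ets1KO. Maff was 1.51 (SE 0.25) above WT in DKO, or 0.79 as deposited. Ifrd1 differed by -0.19 (SE 0.21), or -0.91 as deposited. Fos and Egr1 differed by 1.26 (SE 0.85) and 0.94 (SE 0.98), or 0.54 and 0.22 as deposited, with DKO and WT arrays overlapping for both. In DKO minus WT, 16.4% of all genes were called higher and 12% lower. These comparisons share the DKO arrays with those above.

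Against Ets2KO all 5 genes were higher in DKO with no overlap relative to array medians, as 32.3% of all genes were. Maff differed by 3.38 (2.68 as deposited), Fos by 2.19 (1.48), Egr1 by 2.02 (1.32), Ifrd1 by 1.26 (0.55) and Nr4a1 by 0.78 (0.07). The Nr4a1 value was thus almost nil on the deposited scale, where DKO read 7.78 and 7.87 and Ets2KO 7.80, 7.62 and 7.83. As deposited Egr1 overlapped too, at 12.22 and 13.13 in DKO and 12.35, 12.45 and 9.28 in Ets2KO. The share of all genes called in DKO minus Ets2KO was 17.1% higher and 13.2% lower.

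The order of levels, relative to array medians, differed by gene. For Maff it was DKO, WT, Ets1KO and Ets2KO from high to low, with steps of 1.51, 0.40 and 1.47 and no neighbours overlapping. For Nr4a1, Ets1KO and WT did not differ beyond their spread (0.01 apart), DKO lay 0.90 below WT and Ets2KO 0.78 below DKO. These Nr4a1 steps were clear of overlap. For Ifrd1, WT, DKO and Ets1KO overlapped in turn (steps of 0.19 and 0.30) and Ets2KO lay 0.96 below Ets1KO without overlap. For Fos and Egr1 no neighbouring groups were apart.

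The rank of each gene within its own array gave the same arrangement as values relative to array medians. Both set a gene against the rest of its array, so the match is no separate check. Rank is used here to follow 1 gene from array to array, not to compare genes. Maff stood at the 74.4 and 85.8 percentile of genes in DKO, at 15.0, 19.1 and 22.1 in Ets2KO, at 49.9, 42.9 and 44.0 in Ets1KO and at 57.0, 54.5 and 52.5 in WT. Nr4a1 stood at 30.6 and 33.7 in DKO, 19.3, 17.1 and 19.7 in Ets2KO, 52.5, 55.5 and 44.1 in Ets1KO and 47.8, 62.6 and 41.0 in WT. In rank, then, Nr4a1 in DKO lay between Ets2KO and the groups without Cre, although as deposited its DKO and Ets2KO arrays overlapped. Maff in DKO lay above all groups.

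Ifrd1 stood at 84.4 and 75.1 in DKO, 54.4, 61.3 and 62.7 in Ets2KO, 76.2, 75.9 and 82.6 in Ets1KO and 85.4, 85.8 and 84.0 in WT. Fos stood at 65.0 and 36.3 in DKO, 9.1, 11.5 and 14.6 in Ets2KO, 6.7, 36.2 and 15.6 in Ets1KO and 28.0, 55.2 and 4.5 in WT. Fos thus spanned from near the bottom to the middle of the array among replicates of one genotype. Egr1 stood at 88.4 or above on every array but the third Ets2KO array, where it was at 46.4.

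**Figure D3:**
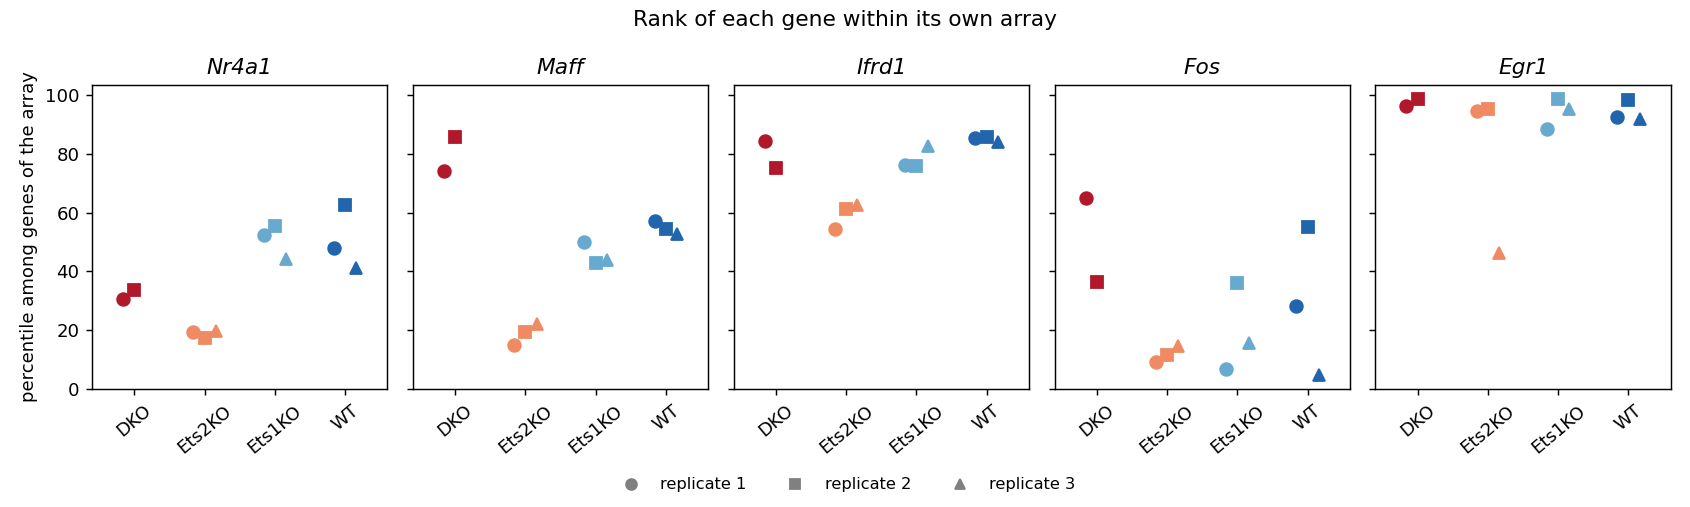
Percentile of each of the 5 genes among the 11015 genes of the same array (vertical axis), by group, with a symbol for each replicate number. Maff ranges from 15.0 to 22.1 in Ets2KO and from 74.4 to 85.8 in DKO, and Egr1 falls to 46.4 on 1 Ets2KO array only.

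The 5 genes also differed in how far replicates spread. The residual SD over the 11 arrays was 0.302 for Nr4a1, 0.287 for Maff and 0.231 for Ifrd1, against a median of 0.274 for all genes. Fos had 1.06 and Egr1 1.21, larger than in 95.4% and 96.9% of genes. For Nr4a1, Fos and Egr1 the second replicate was the highest in both WT and Ets1KO, which held for 3 of the 5 genes, 4 of 37 other immediate-early genes and 9.49% of all genes as deposited, a count made after the values were seen.

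The difference DKO minus Ets1KO, less the difference Ets2KO minus WT, is called the interaction here. It was 3.79 (SE 0.34) for Maff, or 3.04 as deposited, with Maff lower in every Ets2KO array than in WT and higher in both DKO arrays than in Ets1KO. It was 0.77 for Nr4a1, or 0.03 as deposited. It was 1.75 for Ifrd1 (1.004 as deposited), 2.73 for Fos (1.98) and 1.98 for Egr1 (1.23). No p is given, since the interaction contains the contrast that chose the members. Of all genes, 7.54% were called higher and 6.94% lower in the interaction.

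Of 45 immediate-early genes listed from textbook knowledge, 42 were measured, 37 of them besides these 5 genes. In Ets2KO minus WT none of the 37 was called by limma, 13 had an unadjusted p under 0.05 (2092 of all genes did), and 28 were below 0, with a median of -0.53 beside -0.02 for all genes. With array weights 12 of the 37 and 9.48% of all genes were called, and with all 12 columns 3 of the 37 and 2.59% of all genes. Ier3, an early response gene that modulates survival, had the largest difference, -3.14 (adjusted p = 0.080, limma), reading 10.38, 10.19 and 8.50 in Ets2KO and 13.51, 13.15 and 11.84 in WT. Sgk1, a kinase gene induced by serum, differed by -3.04 (adjusted p = 0.107, limma). Dusp1, which codes for a phosphatase that inactivates MAP kinases, differed by -2.79 (adjusted p = 0.099, limma).

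Among partners of Fos, the stress factor Atf3 differed by -1.24 in Ets2KO (adjusted p = 0.096, limma) and Junb by -1.38 (adjusted p = 0.314, limma). Nr4a2, a receptor of the same family as Nr4a1, differed by -0.83 (adjusted p = 0.156, limma). Nr4a3 differed by -0.08 (adjusted p = 0.769, limma). The small Maf gene Mafk differed by -0.41 (adjusted p = 0.484, limma) and Mafg by 0.37 (adjusted p = 0.478, limma). In Ets1KO minus WT none of the 37 was called either, 4 had an unadjusted p under 0.05 (949 of all genes did), and the median was -0.22 beside 0.01 for all genes.

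In DKO minus Ets1KO 7 of the 37 rose and 3 fell relative to array medians, beside 17.4% and 11.3% of all genes, with a median of 0.28 beside 0.17 for all genes. As deposited 1 rose and 10 fell, beside 1.72% and 42.8% of all genes, and after quantile normalization 5 rose and 3 fell, beside 11.1% and 12.8%. Of all calls, 60.7% were higher relative to array medians, 3.88% as deposited and 46.5% after quantile normalization. The median of all genes was -0.59 as deposited, so directions are read relative to array medians. The 10 calls became 5 without the second Ets1KO array, the third Ets1KO array or the first DKO array.

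The AP-1 group held 5 genes that rose and 1 that fell, of 9 measured. Fosl2, a Fos relative, read 12.06 and 10.72 in DKO and 9.18, 9.52 and 9.59 in Ets1KO and rose by 2.72 (SE 0.44, adjusted p = 0.0030, limma), 1.96 as deposited, with 1.43 on its other probe set. Atf3 read 8.02 and 7.12 in DKO and 7.10, 7.05 and 6.14 in Ets1KO and rose by 1.57 (SE 0.33, adjusted p = 0.0087, limma), 0.81 as deposited. In Ets1KO Atf3 was low on the array, at the 10.3, 8.6 and 1.9 percentile. Fosl2 and Atf3 were both higher on each DKO array than on every Ets1KO array, for Atf3 only just so as deposited (7.12 against 7.10). The share of all genes for which this held was not counted, so nothing is read from it. Mafk rose by 1.12 (adjusted p = 0.033, limma), 0.36 as deposited, and Jund by 0.78 (adjusted p = 0.040, limma), 0.02 as deposited. Batf, named after its values were seen, was 0.54 (adjusted p = 0.0172, limma) but -0.22 as deposited. Batf too was low on the array in Ets1KO, at the 10.7, 8.5 and 10.2 percentile. Jun, the main partner of Fos, fell by 0.91 (adjusted p = 0.0494, limma) and by 1.67 as deposited, reading 9.64 and 10.25 in DKO and 11.24, 11.84 and 11.77 in Ets1KO.

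In the Nr4a family Nr4a2 rose by 1.25 (adjusted p = 0.0159, limma), 0.48 as deposited, while its other 3 probe sets gave 0.44, 0.25 and 0.05. Nr4a3 fell by 0.69 (adjusted p = 0.0114, limma) and by 1.45 as deposited. Among 4 relatives and co-repressors of Egr1, the zinc finger gene Egr2 rose by 2.04 (adjusted p = 0.0340, limma), 1.28 as deposited. Egr2 was near the bottom of the array in Ets1KO, at the 2.3, 4.0 and 8.8 percentile, so the size of its rise is uncertain. Nab2, which represses Egr1 activity and is itself an Egr target, fell by 1.69 (adjusted p = 0.0094, limma), reading 8.68 and 8.66 in DKO and 10.67, 11.19 and 11.51 in Ets1KO. None of 22 further immediate-early genes was called in DKO minus Ets1KO by limma, and 3 had an unadjusted p under 0.05. Dusp1 there read 11.72 and 8.82 in DKO and 8.74, 9.62 and 8.30 in Ets1KO, with the DKO arrays far apart.

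**Figure D4:**
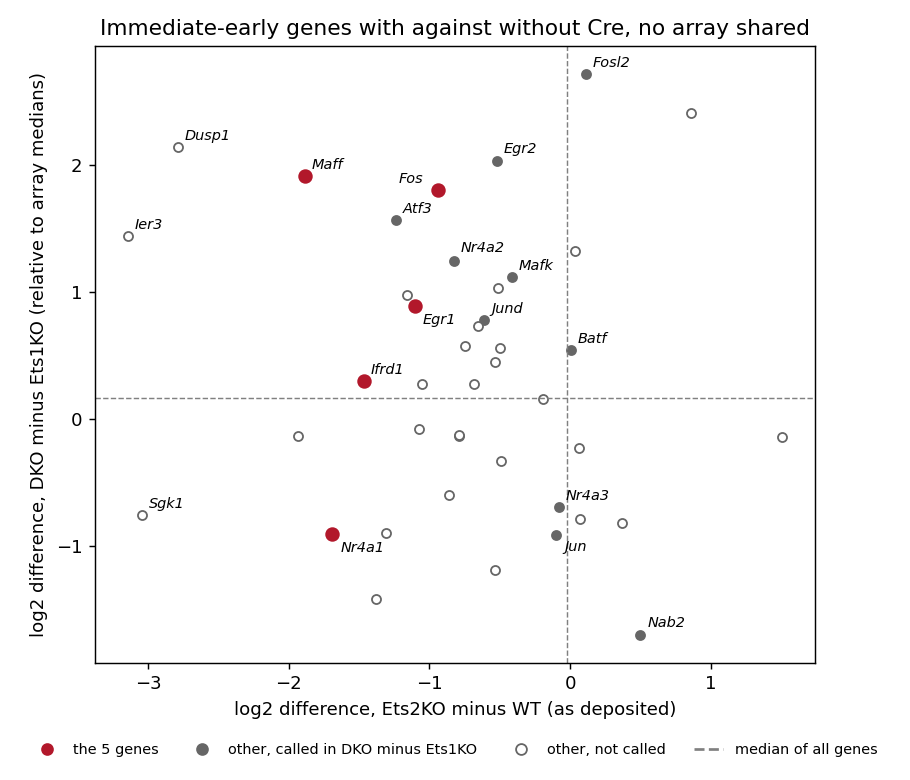
Log2 difference in Ets2KO minus WT as deposited (horizontal axis) against that in DKO minus Ets1KO relative to array medians (vertical axis) for 42 immediate-early genes, the 5 genes in red, others filled where limma called them in DKO minus Ets1KO, with dashed lines at the medians of all genes. Maff, Fos, Egr1 and Ifrd1 lie left of and above the medians and Nr4a1 left of and below them, at -1.69 and -0.91.

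The axes of that plot share no array. Of the 5 genes, 4 were below the median gene in Ets2KO minus WT and above it in DKO minus Ets1KO, as were 15 of the 37 others and 22.3% of all genes. Of the 37 others, 28 were below the median gene on the first axis. The members' position on the first axis is the one that chose them.

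In DKO minus WT 3 of the 37 rose and 4 fell relative to array medians, beside 16.4% and 12% of all genes, with a median of 0.17 beside 0.11 for all genes. As deposited 0 rose and 12 fell, beside 2.32% and 43.6% of all genes. Fosl2 rose by 1.70 (adjusted p = 0.0200, limma), Jund by 0.91 (adjusted p = 0.0225, limma) and Egr2 by 2.32 (adjusted p = 0.0209, limma), and as deposited these were 0.98, 0.19 and 1.60. Jun fell by 1.32 (adjusted p = 0.0118, limma), Nab2 by 1.44 (adjusted p = 0.0177, limma), Nr4a3 by 0.95 (adjusted p = 0.0030, limma) and the kinase gene Plk3 by 0.75 (adjusted p = 0.0483, limma). In DKO minus Ets2KO 10 of the 37 rose and 4 fell, beside 17.1% and 13.2% of all genes, with a median of 0.76 beside 0.14 for all genes. As deposited 6 rose and 6 fell, beside 3% and 43.3% of all genes. Ier3 rose by 3.47 (adjusted p = 0.0110, limma) and Dusp1 by 3.23 (adjusted p = 0.0113, limma), and as deposited these were 2.77 and 2.52. Atf3 rose by 2.00 (adjusted p = 0.0028, limma), 1.29 as deposited, and Egr2 by 2.83 (adjusted p = 0.0088, limma), 2.12 as deposited. Both were near the bottom of the array in Ets2KO, Atf3 at the 2.1 to 2.3 percentile and Egr2 at 0.2 to 1.9. Egr2 was so in WT too, at 0.8 to 9.1. The 4 that fell were Nab2 at -1.95 (adjusted p = 0.0048, limma), Jun at -1.23 (adjusted p = 0.0151, limma), Mafg at -0.98 (adjusted p = 0.0454, limma) and Nr4a3 at -0.89 (adjusted p = 0.0038, limma). As deposited these were -2.66, -1.94, -1.68 and -1.59.

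Upstream of these genes, 11 factors and kinases were measured. In DKO minus Ets1KO Elk1, an ETS factor that sits with SRF, fell by 0.69 (adjusted p = 0.0060, limma) and the SRF coactivator Mrtfa by 0.93 (adjusted p = 0.0135, limma), or -1.46 and -1.69 as deposited. Creb1, which codes for the CREB factor, rose by 0.85 (adjusted p = 0.0068, limma), but 0.08 as deposited, and its other probe sets gave -0.36 and 0.18. The remaining 8, Srf among them, did not pass the test. Of 7 feedback inhibitors of ERK signalling, Spred2 rose by 1.16 in DKO minus Ets1KO (adjusted p = 0.0243, limma), 0.40 as deposited, with 0.15 and 0.63 on its other probe sets, and no other was called.

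Of 10 genes of the small Maf and Nfe2l2 pathway, Bach1, a repressor that pairs with small Maf proteins such as Maff, rose by 1.44 in DKO minus Ets1KO (adjusted p = 0.0149, limma), 0.68 as deposited. Srxn1, an antioxidant gene and Nfe2l2 target, fell by 1.65 (adjusted p = 0.0060, limma), reading 8.14 and 8.42 in DKO and 10.60, 10.69 and 10.77 in Ets1KO, with -0.63, -2.68 and -0.10 on its other probe sets. Hmox1, another target that Bach1 represses, read 9.91 and 10.91 in DKO and 9.05, 10.61 and 9.87 in Ets1KO, which overlap. None of these 10, of the 7 feedback genes or of the 11 upstream genes was called by limma in Ets2KO minus WT or Ets1KO minus WT. An unadjusted p under 0.05 was found for 1, 0 and 1 of them in Ets2KO minus WT and for 0, 0 and 1 in Ets1KO minus WT.

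The 5 genes did not follow a single pattern across arrays. Over the 9 arrays other than DKO, relative to array medians, Pearson's r was 0.964 between Maff and Ifrd1, 0.919 between Nr4a1 and Maff and 0.855 between Nr4a1 and Ifrd1. With the DKO arrays added these were 0.755, 0.451 and 0.727 over 11 arrays. Fos and Egr1 had r = 0.541 over 11 arrays and 0.499 over 9. The arrays fall into groups and were normalized together, and the first 3 genes were chosen for a shared group difference, so these values are a description with no p.

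Among 5507 genes above the median level, those most like Nr4a1 over the 11 arrays were Mid1ip1 (r = 0.941), Msmo1 (0.911) and Slc9a3r1 (0.901). Those most like Maff were P4ha2 (0.950), Hacd1 (0.950) and 3000002C10Rik (0.949). Ifrd1 was most like Dcbld2 (0.918), Ppl (0.910) and Ddx3x (0.903). Fos was most like Tspan9 (0.925), Rapgef2 (0.883) and Bcar1 (0.879), and Egr1 most like Hbegf (0.893), Phlda1 (0.890) and Slain2 (0.870). No gene was among the closest 3 for more than 1 of the 5.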

How the data were processed

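The deposited values are log2 expression per probe set. RMA is named in the submitters' processing notes, with no version. Of 20523 probe sets, 18824 carry 1 symbol in the platform annotation, 549 several and 1150 none. Each of 11015 genes was tested on its brightest probe set. Group means (4 groups, 11 arrays, 7 residual degrees of freedom) entered 1 linear model (lmFit and eBayes of limma 3.58.1, R 4.3.3), with Benjamini and Hochberg adjustment over all genes and calls at an adjusted p under 0.05. The third DKO column was left out. Comparisons without DKO used the values as deposited, those with DKO values relative to array medians. SE is limma's. The procedure was tested on simulated data. Arrays give no read depth, so their number limits the precision.

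The members and gene lists were chosen with earlier results of these data known. Text names the 5 genes, Ets1 and Ets2, list genes called (up to 4 per list and comparison, by size) and up to 2 not called, and the 3 genes most correlated with each member. Genes outside this rule were named after their values were seen. Same-numbered replicates showed no sign of pairing, which the check cannot exclude. Figures were drawn with matplotlib 3.10.9 in Python 3.11.15.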

Additional observations from a re-analysis of the deposited data

Results flagged for a closer look

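Maff was higher in DKO than in Ets1KO and lower in Ets2KO than in WT. Both DKO arrays were above every Ets1KO array and all Ets2KO arrays were below every WT array, and the 2 differences were 3.79 apart on the log2 scale relative to array medians, or 3.04 as deposited. This difference was not tested, since Maff was chosen on 1 of the contrasts in it. Every Ets2KO array was below every WT array in 14.1% of all genes. The share with both DKO arrays above every Ets1KO array was not counted.

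For other genes of the lists the interaction passed limma's test. Among AP-1 partners it was 2.79 for Atf3 (adjusted p = 0.0056, limma, 2.04 as deposited), 2.59 for Fosl2 (adjusted p = 0.0213, limma, 1.85 as deposited) and 1.38 for Jund (adjusted p = 0.0244, limma, 0.63 as deposited). Atf3 was near the bottom of the array in Ets2KO, at the 2.1 to 2.3 percentile. Nr4a2 had 2.06 (adjusted p = 0.0132, limma, 1.31 as deposited), with 1.43, 1.05 and 0.46 on its other probe sets. Dusp1 had 4.91 (adjusted p = 0.0138, limma) and Ier3 4.58 (adjusted p = 0.0222, limma), the largest of the called list genes, with 4.17 and 3.83 as deposited. Ier5 had 2.12 (adjusted p = 0.0323, limma), but its other probe sets gave -1.85 and 1.97. Bach1 had 1.70 (adjusted p = 0.0404, limma, 0.96 as deposited) and Creb1 0.86 (adjusted p = 0.0358, limma, 0.11 as deposited), where the other Creb1 probe sets gave -0.31 and 0.71.

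The interaction was negative for Nab2, at -2.21 (adjusted p = 0.0191, limma, -2.95 as deposited), for Srxn1, at -1.62 (adjusted p = 0.0355, limma, -2.37 as deposited), and for Elk1, at -0.66 (adjusted p = 0.0395, limma, -1.41 as deposited). Of the 37 other immediate-early genes 7 were called higher and 1 lower, beside 7.54% and 6.94% of all genes. Groups of 3 arrays or fewer are too small for the check for single outlying arrays.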

How the results depend on the processing

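With only the DKO and Ets1KO arrays in the fit, adjusted p in DKO minus Ets1KO was 0.0360 for Nr4a1, 0.0182 for Maff and 0.408 for Ifrd1 (limma). Maff in DKO minus Ets1KO kept its direction and its call in all 18 alternatives, between 1.47 and 2.37 when 1 array was left out. Nr4a1 in that comparison kept its direction, between -1.06 and -0.80 with 1 array left out, and lost its call with array weights (-0.98, adjusted p = 0.0517, limma). Ifrd1 was -0.46 as deposited, and between 0.00 and 0.60 with 1 array left out. In Ets2KO minus WT, which chose some of the genes, the leave-one-out ranges were -1.87 to -1.43 for Nr4a1, -2.0 to -1.76 for Maff, -1.55 to -1.36 for Ifrd1, -1.70 to -0.21 for Fos and -1.64 to -0.06 for Egr1.

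The number of other immediate-early genes called moved more. In DKO minus Ets1KO it was 10, 4 among genes above the median only and 5 to 12 with 1 array left out. In DKO minus Ets2KO it was 14, 8 among genes above the median only, 6 with only the groups compared and 9 to 13 with 1 array left out. In DKO minus WT it was 7, 12 as deposited, 13 with all 12 columns, 4 with only the groups compared and 2 to 10 with 1 array left out. The lowest counts came without Ets1KO 2, Ets1KO 3 or DKO 1 (5), without Ets2KO 1, Ets2KO 2 or DKO 1 (9) and without DKO 1 (2). In Ets2KO minus WT it was 0, 3 with all 12 columns and 12 with array weights. In the interaction it was 8, 14 with all 12 columns, 5 among genes above the median only, 13 with array weights and 5 to 10 with 1 array left out (5 without Ets1KO 3, Ets2KO 1 or DKO 1). The causes were not tested, but fewer genes or arrays enter some of these fits.

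With a replicate block the Nr4a1 difference in DKO minus Ets1KO was -1.02 (adjusted p = 0.0264, limma), that of Maff 1.92 and that of Ifrd1 0.34, and 8 other immediate-early genes were called there. Correlations of same-numbered arrays, as deviations from their group means, ran from -0.325 to 0.104 over 15 pairs, with 1 above 0.1. They gave no sign that the numbers pair samples. Such deviations cancel out within a group, which ties the correlations together, so they cannot exclude pairing.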

Other observations

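The third Ets2KO array, on which Egr1 was low, was also low for some other genes that growth factor signalling induces. Counted after its values were seen, 536 of 11015 genes (4.87%) were, as deposited, at least 1 log2 unit below both other Ets2KO arrays there. Of the 37 other immediate-early genes 10 were (27.0%): Fosl1, Egr2, Egr3, Ier3, Klf2, Klf10, Arc, Trib1, Bhlhe40 and Sgk1. Of 7 feedback genes of ERK signalling 2 were, the phosphatase gene Dusp6 and the inhibitor Spred1. Among Nr4a1, Maff, Ifrd1, Fos and Egr1 it was Egr1 alone. The other 4 were the highest of their group on that array, at 7.83, 7.99, 9.98 and 7.46. The same held for 8 of the 37 others and 46.7% of all genes.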
